A study of Mus musculus with 10 samples.

Results

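The 38 genes described here are genes of the endothelium, the cell layer that lines blood and lymph vessels, and of angiogenesis, the growth of new vessels from existing ones. They were chosen by name, as rows of the count table whose Ensembl identifier carries one of the 38 symbols, and all 38 were found among its 21849 genes. The choice was made with earlier results of these data known. The RNA was that of 10 tumours which CT26, an established mouse colon carcinoma line, had formed beneath the skin of BALB/c mice, away from the colon, with 1 library each. The mice were 5 weeks old when they were allotted by weight to a normal diet or to one of equal calories without arginine, 5 tumours a diet. They ate it for 1 week before the CT26 cells were injected, and the tumours were taken on day 20. All mice carried the same implanted line and no agent other than the diets is named. Each whole tumour holds cancer, stromal, immune and vessel cells together, so fewer endothelial cells and less endothelial RNA per cell cannot be told apart.

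Endothelial cells hold to each other through VE-cadherin, PECAM-1, ESAM and claudin-5, and receive growth signals mainly through VEGF receptors and the TIE receptors. Under VEGF a leading tip cell raises the Notch ligand DLL4, which restrains sprouting in its neighbours, while ephrin-B2 and EPHB4 mark arteries and veins. ERG and the SOX factors of the F group keep the endothelial programme on, and PROX1, LYVE-1 and VEGFR3 mark lymphatic vessels. In tumours this programme gives leaky, irregular vessels rich in PLVAP.

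The libraries held between 12013178 and 31530123 counts each; 12929 genes passed the filter on low counts and were tested. CPM is a gene's count scaled by the library's total and TMM factor. The epithelial genes Epcam, Cdx2, Vil1 and Muc2 stayed under 1 CPM in every library. Other epithelial genes were higher: Krt20 ran from 87.4 to 267 CPM and Krt18 from 4.15 to 20.4 CPM. Cdh1 exceeded 1 CPM in every library and reached 4.49 CPM, while Krt8 lay on both sides of 1 CPM. Vim ran from 3626 to 6790 CPM. Libraries differed in content: summed skeletal muscle transcripts reached 7480, 1934 and 738 CPM in arginine-deficient replicates 3 and 4 and normal-diet replicate 4, against 72.2 to 173 CPM in the others. The mitochondrial share of counts was 9.97% in the first of these and 1.67% to 4.44% elsewhere. The slope of log2 CPM on transcript GC content, fitted over genes, was lowest in arginine-deficient replicate 3 (-0.68 per 10 percentage points) and highest in normal-diet replicate 5 (0.22).

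The RefSeq promoter table (GRCm38.p6, the build also called mm10) held 22 of the 38 members. Shown are the upstream stretches of Robo4 and Cldn5, the members with the smallest p between the diets, of Dll4, and of Cd34 and Apln, the members with the highest level. Each is written 5′ to 3′ on the gene's strand and stops before the first annotated exon. Capitals mark the core of sites for ETS factors such as ERG, GGAA or, on the other strand, TTCC. Robo4 is chr9:37401722-37401896 (plus strand), Cldn5 chr16:18776597-18776846 (plus), Dll4 chr2:119325565-119325783 (plus), Cd34 chr1:194938571-194938818 (plus) and Apln chrX:48034854-48035103 (minus).
Robo4: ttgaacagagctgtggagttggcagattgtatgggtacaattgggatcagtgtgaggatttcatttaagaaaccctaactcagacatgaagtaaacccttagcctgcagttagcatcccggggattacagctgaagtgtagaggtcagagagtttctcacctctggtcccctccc
Cldn5: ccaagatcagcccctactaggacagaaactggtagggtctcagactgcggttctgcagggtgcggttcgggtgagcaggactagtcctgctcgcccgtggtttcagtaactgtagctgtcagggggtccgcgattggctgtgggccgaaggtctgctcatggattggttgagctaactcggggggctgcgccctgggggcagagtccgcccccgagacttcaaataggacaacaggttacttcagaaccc
Dll4: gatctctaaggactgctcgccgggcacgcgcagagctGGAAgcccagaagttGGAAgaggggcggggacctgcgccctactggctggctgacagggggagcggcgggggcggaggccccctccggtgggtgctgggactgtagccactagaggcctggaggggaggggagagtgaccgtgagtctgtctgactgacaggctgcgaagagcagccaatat
Cd34: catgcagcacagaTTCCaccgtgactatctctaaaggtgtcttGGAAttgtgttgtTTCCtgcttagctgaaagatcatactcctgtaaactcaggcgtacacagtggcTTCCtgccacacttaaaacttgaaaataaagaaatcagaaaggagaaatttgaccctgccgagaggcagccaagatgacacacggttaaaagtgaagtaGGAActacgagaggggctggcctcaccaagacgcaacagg
Apln: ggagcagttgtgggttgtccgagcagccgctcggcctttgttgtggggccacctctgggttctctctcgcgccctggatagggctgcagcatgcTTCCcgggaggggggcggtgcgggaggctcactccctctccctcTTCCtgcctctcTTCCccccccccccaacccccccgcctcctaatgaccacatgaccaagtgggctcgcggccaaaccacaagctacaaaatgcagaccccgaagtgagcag
The printed stretches of Robo4 and Cldn5 hold 0 ETS cores, Dll4 holds 2, Cd34 5 and Apln 3. That core is common: of all 32851 windows of 250 bases before a start in the table, 93.4% hold it, and so do 25 of the 27 windows of members (92.6%). The hypoxia-response letters ACGTG were found, on either strand, in 2 of the 27 windows (7.41%) and in 16.6% of all windows. ACAAT, the core bound by SOX factors, was found in 29.6% against 27.7%, the GATA letters AGATAA in 3.70% against 9.99%, and TGGGAA, bound by the Notch effector RBPJ and overlapping the ETS core, in 22.2% against 21.6%. Matches in such a window are letters only, and nothing was measured at these sites.

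Of the 38 members 35 were tested. Angpt2, a TIE2 ligand stored in endothelial cells, and Esm1, a tip-cell proteoglycan, were listed at 0 in all 10 libraries. All exonic bases of Angpt2 lie inside the body of Mcph1 and all those of Esm1 inside the body annotated for Gzmk, so a 0 does not show that they are absent. Prox1, the master factor of lymphatic identity, had 0 to 6 counts per library and did not pass the filter.

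Levels were compared between genes per kilobase of exons (RPKM). Cd34, a sialomucin of capillary endothelium and of several stromal and progenitor cells, was highest with 38.4 ± 8.49 RPKM (SD, n = 10). Apln, the secreted ligand of the apelin receptor, followed with 26.0 ± 4.45 RPKM (SD, n = 10), and its receptor gene Aplnr had 1.34 ± 0.677 RPKM. Cdh5, which encodes VE-cadherin, had 16.9 ± 2.07 RPKM, close to Efnb2 (15.3 ± 1.73), Eng (14.7 ± 1.05), Plvap (14.2 ± 4.31) and Ephb4 (13.9 ± 2.58). Pecam1 had 11.8 ± 1.34 RPKM, about the last of these before a step down to Esam (6.38 ± 0.656). Among the VEGF and TIE receptors the order was Flt1 (5.00 RPKM), Tie1 (3.73), Kdr (2.23), Tek (0.844) and Flt4 (0.694). Vwf, the clotting factor stored in the granules of endothelium and platelets, was lowest of the tested members with 0.119 ± 0.0364 RPKM. Of 35 neighbouring pairs in this order, 30 differed by less than the larger SD of the pair, so the order among most neighbours is not resolved. The pairs that differed by more are Cd34 and Apln, Apln and Cdh5, Pecam1 and Esam, Sox17 and Vwf, and Vwf and Prox1.

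**Figure D1:**
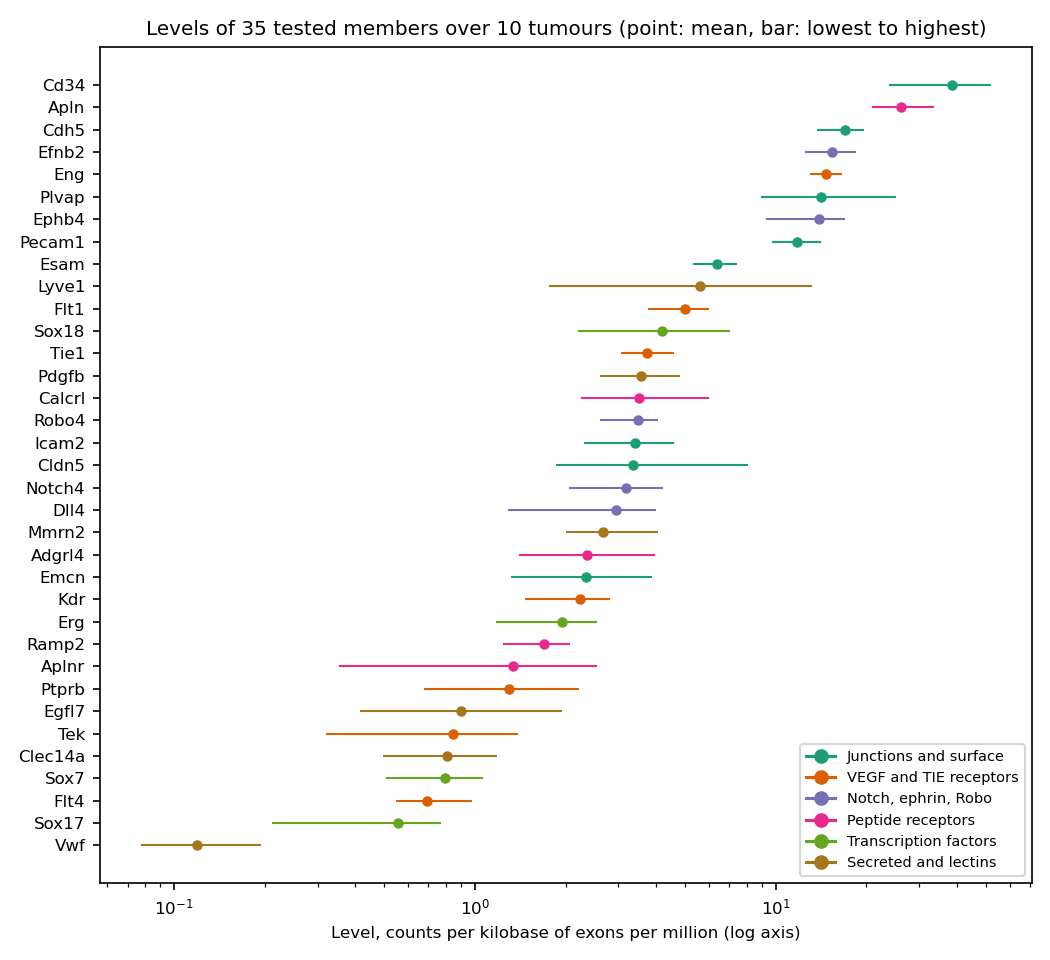
Level of each tested member in RPKM (log axis), as the mean (point) and the range (bar) over 10 tumours, coloured by role. Levels run from 0.119 for Vwf to 38.4 for Cd34.

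Comparing the diets asks whether the loss of dietary arginine altered the tumour's vessel genes. 0 of the 35 tested members passed in either direction (edgeR quasi-likelihood test, adjusted p under 0.05); the lowest adjusted p, that of Robo4, was 0.700. Over all tested genes the same rule called 7 higher (0.0541%) and 0 lower (0%). Most members nonetheless stood somewhat lower on the arginine-deficient diet: the log2 fold change was negative in 26 of 35 (74.3%) and its median -0.12, against 49.7% and 0.0012 over all tested genes. At an unadjusted p under 0.05 there were 2 members lower, Robo4 and Cldn5 (5.71% of members against a background of 3.19%), and 0 higher (background 3.54%, or 6.74% in either direction). In 1 member, Robo4, all libraries of the deficient diet lay below all of the normal diet, or 2.86% of members, against 0.812% of all tested genes. Because the members were chosen with earlier results of these data known, these shares describe the list and do not test it against the background. Leaving out normal-diet replicate 1, normal-diet replicate 3 or deficient replicate 5, each alone, 0 members had an unadjusted p under 0.05 by edgeR. The count of lower members was 29 without arginine-deficient replicate 3 and 30, with a median of -0.22, without the 3 libraries richest in muscle, arginine-deficient replicates 3 and 4 and normal-diet replicate 4.

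**Figure D2:**
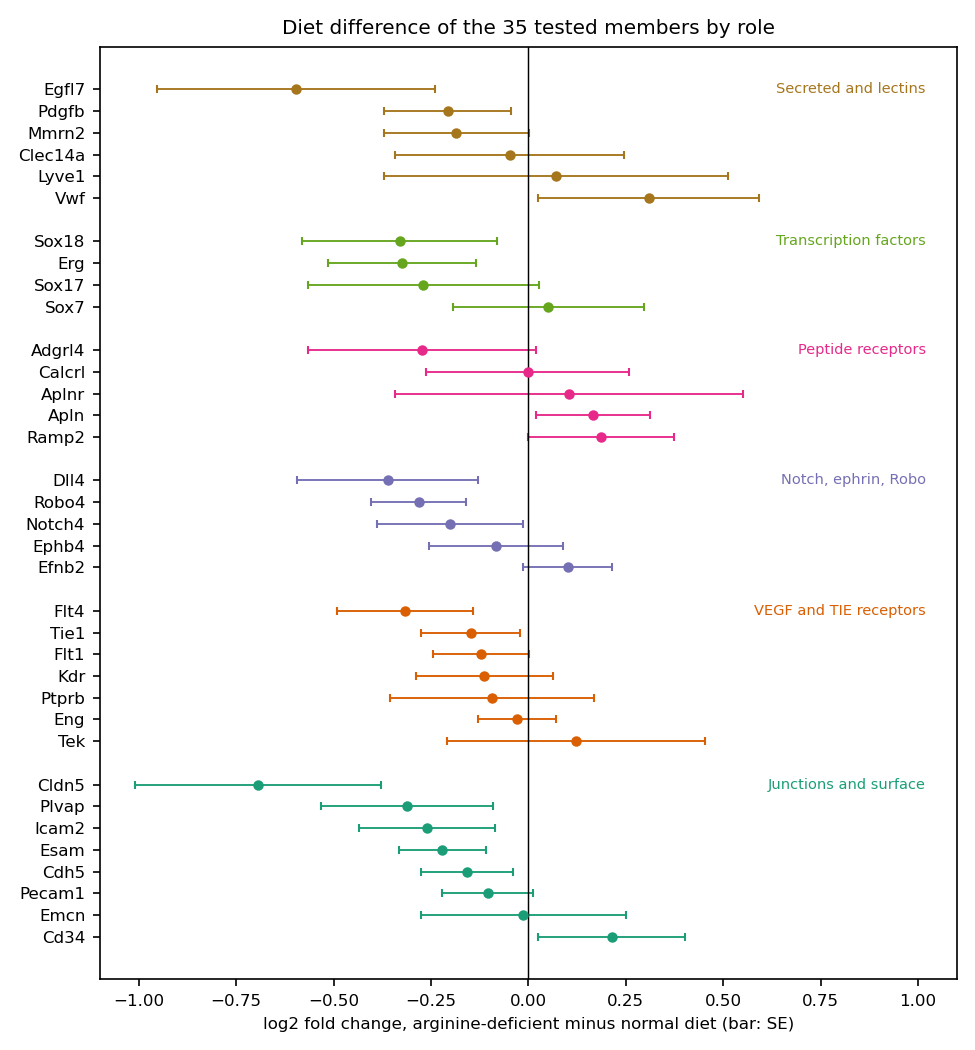
Log2 fold change of each tested member, arginine-deficient minus normal diet, with its SE as a bar, grouped by role. Of 35 points 26 lie left of 0 and none passed the test.

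Of the 8 genes of junctions and the cell surface, 7 were lower and 1 higher; their log2 fold changes had a median of -0.19, and 0 were called. Cldn5, which seals tight junctions between endothelial cells, stood at 4.44, 4.19, 2.66, 3.58 and 3.10 CPM in arginine-deficient replicates 1 to 5 and at 5.02, 3.56, 5.49, 3.93 and 11.4 CPM in normal-diet replicates 1 to 5. The diets overlapped, and normal-diet replicate 5 lay far above every other library. Its log2 fold change was -0.69 (SE 0.32, adjusted p = 0.738 by edgeR), and -0.32 without normal-diet replicate 5. Esam, an adhesion molecule of endothelial tight junctions and platelets, had 17.1, 16.7, 15.3, 18.5 and 16.8 CPM on the deficient and 20.9, 18.8, 18.1, 19.6 and 21.1 CPM on the normal diet. Only deficient replicate 4 reached into the normal range (log2 fold change -0.22 with an SE of 0.11, edgeR adjusted p = 0.793).

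Cdh5 had 77.3, 57.9, 72.6, 64.2 and 64.5 CPM in the deficient libraries and 73.7, 77.2, 82.0, 81.6 and 60.9 CPM in the normal ones. Its groups overlapped broadly, with normal-diet replicate 5 among the lowest of all (log2 fold change -0.16 with an SE of 0.12, edgeR adjusted p = 0.943). Plvap, which forms the diaphragms of fenestrated vessels, had 23.3, 27.9, 17.8, 29.7 and 26.8 CPM against 31.4, 21.2, 28.6, 25.2 and 49.5 CPM. Here normal-diet replicate 5 was the highest library, the reverse of its place in Cdh5, and 32.3% of the exonic bases of Plvap lie inside another gene. Icam2, an endothelial and leukocyte adhesion molecule, had 5.74, 4.43, 6.08, 7.04 and 6.20 CPM against 7.02, 6.36, 7.11, 6.28 and 8.66 CPM. Its log2 fold change of -0.26 (SE 0.17) and that of Plvap of -0.31 (SE 0.22) lay within the spread between tumours.

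Cd34 was the 1 gene of this group that stood higher. It had 375, 273, 310.3, 215 and 331 CPM in the deficient libraries and 224, 318, 261, 319.7 and 174 CPM in the normal ones. The ranges overlapped for most of their length (log2 fold change 0.21 with an SE of 0.19, edgeR adjusted p = 0.960). Pecam1 ran from 65.6 to 76.7 CPM on the deficient and from 61.1 to 87.5 CPM on the normal diet (log2 fold change -0.11 with an SE of 0.12). Emcn, a sialomucin of venous and capillary endothelium, averaged 12.6 ± 5.14 and 12.7 ± 2.93 CPM (SD, n = 5 each).

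**Figure D3:**
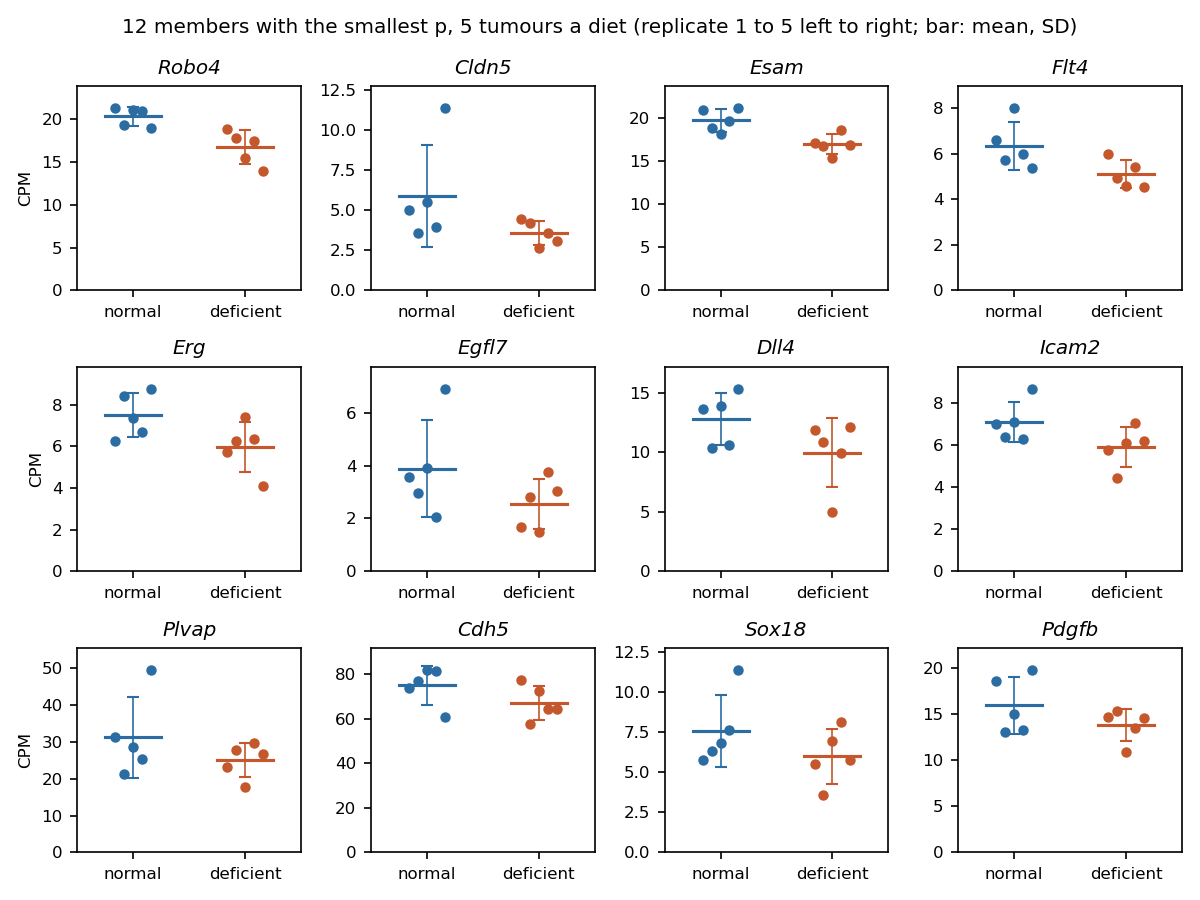
CPM of the 12 members with the smallest p in each of the 10 tumours, with the mean and SD of each diet; every axis starts at 0. Robo4 is the only panel in which the diets do not overlap, from 13.9 to 18.8 CPM on the deficient and from 19.0 to 21.3 CPM on the normal diet.

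Among the VEGF and TIE receptors and their partners, 6 of 7 tested members were lower and 1 higher, with a median of -0.11 and 0 called. Flt4, which encodes VEGFR3, the receptor of lymphatic and tip cells, had 6.0, 4.91, 4.58, 5.40 and 4.54 CPM on the deficient and 6.58, 5.71, 8.0, 5.98 and 5.38 CPM on the normal diet. Normal-diet replicate 3 was highest, and the rest overlapped in part (log2 fold change -0.32 with an SE of 0.17, edgeR adjusted p = 0.833). Flt1, the VEGF-binding receptor that limits signalling, had 74.1, 51.2, 69.3, 59.9 and 68.8 CPM against 63.0, 73.5, 67.9, 80.7 and 66.8 CPM. The diets overlapped between 63.0 and 74.1 CPM, with deficient replicates 2 and 4 below and normal-diet replicate 4 above (log2 fold change -0.12 with an SE of 0.12). Kdr, which encodes the main signalling receptor VEGFR2, averaged 19.4 ± 4.25 and 21 ± 3.31 CPM (SD, n = 5 each; log2 fold change -0.11 with an SE of 0.18).

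Eng, a co-receptor for BMP9 in endothelium, had the lowest SD relative to its mean level of these genes. It had 60.3, 55.5, 61.6, 60.1 and 57.7 CPM on the deficient diet and 66.6, 64.6, 61.3, 55.7 and 52.9 CPM on the normal one. Its log2 fold change of -0.03 (SE 0.10) was the smallest in this group, and the deficient libraries lay inside the normal range. Tie1, the orphan partner of TIE2, ran from 15.2 to 19.7 CPM against 17.4 to 22.4 CPM (log2 fold change -0.15 with an SE of 0.13). For Tek, which encodes TIE2, the log2 fold change was 0.12 (SE 0.33), and -0.096 without arginine-deficient replicate 3. Ptprb, the phosphatase that restrains TIE2, had -0.09 (SE 0.26), with 29.3 CPM in arginine-deficient replicate 3 and 9.11 to 23.0 CPM elsewhere.

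Of the 5 members in Notch, ephrin and Robo signalling, 4 were lower and 1 higher, with a median of -0.20 and 0 called. Robo4, a roundabout receptor that is nearly confined to endothelium and steadies vessels, had 18.8, 17.8, 15.5, 17.5 and 13.9 CPM in the deficient libraries. In the normal ones it had 21.3, 19.3, 21.03, 20.9 and 19.0 CPM, and the nearest libraries of the diets lay 18.8 against 19.0 CPM. It averaged 16.7 ± 1.98 and 20.3 ± 1.07 CPM (SD, n = 5 each), a log2 fold change of -0.28 with an SE of 0.12 (edgeR unadjusted p = 0.0387, adjusted p = 0.700). Across the fits that left out 1 library its log2 fold change ran from -0.33 to -0.23. Robo4 (ENSMUSG00000032125.20) spans positions 37401897 to 37415115 of chromosome 9 on mm10, exons and introns together, and none of its exonic bases lies inside another gene.

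Dll4 had 11.9, 10.8, 4.98, 9.93 and 12.1 CPM on the deficient and 13.7, 10.4, 13.9, 10.6 and 15.3 CPM on the normal diet. Arginine-deficient replicate 3, the library with most muscle transcripts, held less than any other, and without it the log2 fold change went from -0.36 (SE 0.23) to -0.19. Notch4, the endothelial Notch receptor, averaged 23.8 ± 6.14 and 27.3 ± 4.84 CPM (SD, n = 5 each; log2 fold change -0.20 with an SE of 0.19). Efnb2 had 99.9, 103, 125, 121 and 95.2 CPM against 103, 113, 98.7, 107 and 86.2 CPM (log2 fold change 0.10 with an SE of 0.11). Ephb4 had 57.0, 74.9, 43.4, 73.1 and 64.9 CPM against 73.4, 47.9, 72.0, 60.6 and 78.0 CPM (log2 fold change -0.08 with an SE of 0.17). Neither the arterial ligand nor its venous receptor separated the diets, and Ephb4 was lowest in arginine-deficient replicate 3, where Efnb2 was highest.

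The peptide receptors and their partners were split, 2 lower and 3 higher, with a median of 0.10 and 0 called. Apln had 71.8, 105, 67.3, 85.7 and 103 CPM on the deficient diet and 70.0, 66.5, 89.2, 79.7 and 80.5 CPM on the normal one. Deficient replicates 2 and 5 were the highest and replicate 3 among the lowest (log2 fold change 0.17 with an SE of 0.15, edgeR adjusted p = 0.962). Calcrl, which with RAMP2 forms the adrenomedullin receptor, had 11.1, 16.5, 29.0, 13.9 and 15.4 CPM against 13.98, 22.6, 18.6, 19.2 and 11.5 CPM. The means of both diets were 17.2 CPM, with the highest value in arginine-deficient replicate 3. The log2 fold change was 0.19 (SE 0.19) for its partner Ramp2, 0.10 (SE 0.45) for Aplnr and -0.27 (SE 0.29) for Adgrl4, an adhesion receptor of angiogenic endothelium. Aplnr ran from 1.32 to 9.35 CPM within the deficient diet alone.

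Among transcription factors 3 of 4 tested members were lower and 1 higher, with a median of -0.30 and 0 called. Erg had 5.71, 6.23, 7.42, 6.35 and 4.11 CPM on the deficient and 6.26, 8.42, 7.37, 6.69 and 8.75 CPM on the normal diet. Arginine-deficient replicate 5 was lowest and the diets overlapped between 6.26 and 7.42 CPM (log2 fold change -0.32 with an SE of 0.19, edgeR adjusted p = 0.856). Sox18 had 5.49, 3.59, 6.91, 8.12 and 5.77 CPM against 5.72, 6.32, 6.81, 7.61 and 11.4 CPM, again highest in normal-diet replicate 5 (log2 fold change -0.33 with an SE of 0.25). Sox17, an arterial factor, averaged 2.39 ± 1.01 and 2.90 ± 0.165 CPM (SD, n = 5 each), and Sox7 2.67 ± 0.514 and 2.58 ± 0.682 CPM.

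Of the 6 tested secreted and surface lectin members, 4 were lower and 2 higher, with a median of -0.12 and 0 called. Egfl7, a matrix protein secreted by endothelium, had 1.68, 2.82, 1.49, 3.76 and 3.03 CPM against 3.56, 2.95, 3.92, 2.04 and 6.90 CPM. Its counts are uncertain, since 84.2% of its exonic bases lie inside other genes (log2 fold change -0.60 with an SE of 0.36, edgeR adjusted p = 0.866), and without normal-diet replicate 5 the log2 fold change was -0.30. Pdgfb, by which endothelium recruits pericytes, had 14.7, 15.3, 10.9, 13.5 and 14.6 CPM against 18.6, 13.0, 14.99, 13.3 and 19.8 CPM. The 2 highest libraries were normal-diet replicates 1 and 5, and the others overlapped (log2 fold change -0.21 with an SE of 0.16).

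Lyve1, a hyaluronan receptor of lymphatic endothelium and of some macrophages, had the highest SD relative to its mean CPM of the tested members. It had 17.1, 15.5, 24.1, 16.1 and 10.6 CPM on the deficient and 13.6, 5.19, 15.6, 7.66 and 38.1 CPM on the normal diet, so that the lowest and the highest tumour both came from the normal diet. The log2 fold change was 0.07 (SE 0.44), and 0.66 without normal-diet replicate 5. The log2 fold change of Mmrn2, an endothelial matrix protein, was -0.19 (SE 0.19), and that of Clec14a, a lectin that binds it, -0.05 (SE 0.29). Vwf had 0.31 (SE 0.28) at 17 to 76 counts per library.

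Members differed among themselves according to library and to the GC content of their transcripts. Of 35 tested members, 13 were highest and 7 lowest in normal-diet replicate 5, and 10 were highest and 9 lowest in arginine-deficient replicate 3. Over the 35 members, the log2 deviation of a member from its own mean went with its GC content at Pearson r = 0.55 in normal-diet replicate 5 and r = -0.74 in arginine-deficient replicate 3, a description of each library across genes that are not independent. These 2 libraries were not alone: r was 0.65 in normal-diet replicate 1, -0.42 in replicate 2 and -0.36 in replicate 4. In the remaining libraries it lay between 0.05 and 0.26. The 18 members of higher GC content (53.6% to 61.5%) had 16 negative log2 fold changes with a median of -0.24, and the 17 of lower GC content (37.5% to 53.2%) had 10 with a median of -0.01. All tested genes within these GC ranges had medians of -0.0095 and 0.0076, and 52.0% and 48.5% of them were negative. Without normal-diet replicate 5 and arginine-deficient replicate 3 (chosen after seeing the data), the split turned round: 13 of the 18 higher-GC members were negative with a median of -0.10, and 14 of the 17 lower-GC members with a median of -0.25. With each library's slopes on GC content and gene length as covariates the higher-GC and lower-GC members had medians of -0.24 and -0.04, and 25 of 35 members were negative. Which members lead the list therefore depended on these 2 libraries, while the count of lower members was 27 of 35 without them. At an unadjusted p under 0.05 edgeR then gave Adgrl4, Calcrl and Cdh5 as lower, and no longer Robo4 and Cldn5. Those 3 were 8.57% of members, against 18.2% of all genes tested in that fit. The log2 fold change of Robo4 hardly moved, from -0.28 to -0.27, while that of Cldn5 went from -0.69 to -0.22. The part of GC content in the members' values was not tested beyond these fits.

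**Figure D4:**
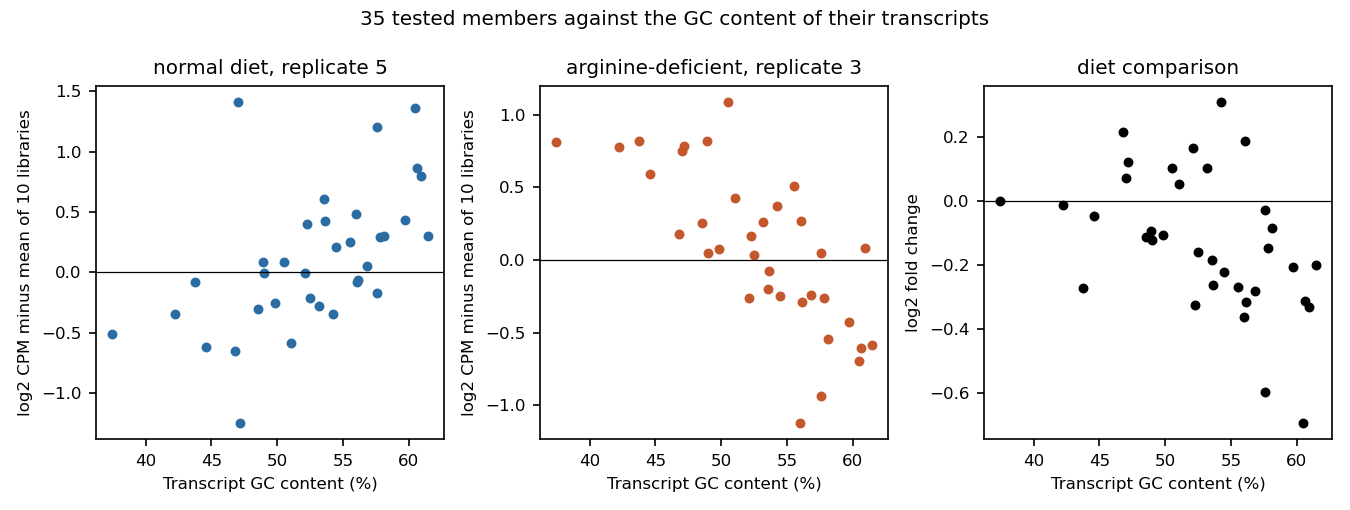
Log2 CPM of each tested member minus its mean over 10 libraries in normal-diet replicate 5 (left) and arginine-deficient replicate 3 (middle), and the diet log2 fold change (right), against the GC content of the member's transcripts in percent. Members of high GC content sit high in the first library (r = 0.55) and low in the second (r = -0.74). Normal-diet replicates 1 (r = 0.65), 2 (r = -0.42) and 4 (r = -0.36) are not drawn.

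Cdh5 was set against each of the other 34 tested members over the 10 libraries, to see which members vary together from tumour to tumour. Kdr had the highest Pearson r of the 34 over all 10 libraries, r = 0.85 (permutation p = 0.00137, adjusted p = 0.0466 over 34 relations) and Spearman rho = 0.68 (permutation p = 0.0346, adjusted p = 0.235), two-sided. Without the 2 libraries farthest from the median of Cdh5, arginine-deficient replicate 2 and normal-diet replicate 5, r was 0.64. Pecam1 had r = 0.83 (permutation p = 0.00384, adjusted p = 0.0653) and rho = 0.85 (permutation p = 0.00273, adjusted p = 0.0928), and r = 0.72 without those 2 libraries. Flt1 had r = 0.75 (permutation p = 0.00851, adjusted p = 0.0964) and rho = 0.70 (permutation p = 0.0301, adjusted p = 0.235), and r = 0.64 without them. The order depended on the measure: by rho Pecam1 came first and Flt4 (rho = 0.73, permutation p = 0.0204, adjusted p = 0.235; r = 0.65, permutation p = 0.0385, adjusted p = 0.262) second, and without the 2 libraries r was 0.75 for Robo4, 0.72 for Pecam1 and 0.68 for Flt4, all above Kdr. Robo4 over all libraries had r = 0.51 (permutation p = 0.136, adjusted p = 0.401) and rho = 0.58 (permutation p = 0.0892, adjusted p = 0.505). Apln lay at the other end with r = -0.57 (permutation p = 0.0913, adjusted p = 0.399) and rho = -0.38 (permutation p = 0.278, adjusted p = 0.701), and r = -0.41 without them. In all, 22 of 34 relations had a positive r, with a median of 0.27, and a median of 0.09 without the 2 libraries; 1 passed by r and 0 by rho after adjustment (in rho, Pecam1 had the smallest p, 0.00273). These values include the difference between the diets. With each library taken as its deviation from the mean of its diet, r was 0.86 for Kdr (exact permutation within diets p = 0.00431, adjusted p = 0.0732) and 0.81 for Pecam1 (exact p = 0.00229, adjusted p = 0.0732). It was 0.76 for Cd34, 0.70 for Flt1, 0.52 for Flt4, 0.27 for Robo4 and -0.49 for Apln. The most negative were Egfl7 (r = -0.81, exact permutation p = 0.0142, adjusted p = 0.107) and Plvap (r = -0.79, exact permutation p = 0.0188, adjusted p = 0.107). In all, 19 of 34 were positive with a median of 0.28, and 0 passed after adjustment. The members with the highest r over 10 libraries were Kdr, Pecam1, Flt1, Emcn and Flt4. Their transcripts had GC contents of 48.6%, 49.8%, 49.0%, 42.2% and 56.2%. Apln, Plvap, Ephb4, Lyve1 and Egfl7 had the most negative r. Theirs had GC contents of 52.1%, 60.6%, 58.1%, 47.0% and 57.6%. The part of GC content in these relations was not tested. No batch is given in the labels.

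A wider list of 58 endothelial genes, none of them a member, was read beside the members. Of its 48 tested genes 27 were lower (56.2%), the median log2 fold change was -0.04, and 0 passed in either direction. At an unadjusted p under 0.05 by edgeR there were 2 lower (4.17%, background 3.19% of all tested genes) and 1 higher (background 3.54%). Tm4sf1, a tetraspanin-like surface protein of endothelium and of many carcinoma cells, had 364, 385, 373, 384 and 445 CPM on the deficient and 518, 485, 509, 515 and 531 CPM on the normal diet. The diets did not overlap (log2 fold change -0.39 with an SE of 0.10, edgeR adjusted p = 0.270), and DESeq2, limma voom with sample weights and the fit with GC and length covariates each called it. Gpihbp1, which holds lipoprotein lipase on capillaries, averaged 8.24 ± 1.64 and 13.1 ± 5.05 CPM (SD, n = 5 each; log2 fold change -0.66 with an SE of 0.24, edgeR adjusted p = 0.607). S1pr3, a sphingosine-1-phosphate receptor of vessel wall cells, averaged 6.86 ± 1.74 and 4.46 ± 0.356 CPM (log2 fold change 0.62 with an SE of 0.20, edgeR adjusted p = 0.496).

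Genes of a list of angiogenesis ligands and regulators did not pass either. Of 42, 35 were tested, of which 19 stood higher and 16 lower (median 0.07), and 0 were called. At an unadjusted p under 0.05 by edgeR 6 of the 35 were higher (background 3.54% of all tested genes): Vegfa, Adamts1, Adm2, Thbs1, Serpinf1 and Sema3c. Only 1, Thbs2, was lower (2.86%, background 3.19%). The log2 fold change was 0.40 (SE 0.16) for Thbs1, 0.37 (SE 0.16) for Serpinf1 and 2.24 (SE 0.96) for Sema3c. Vegfa, the main ligand of VEGFR2, had 409, 437, 152, 295 and 363 CPM on the deficient and 218, 181, 241, 221 and 261 CPM on the normal diet. In 4 deficient tumours it exceeded every normal one, and in arginine-deficient replicate 3 it was the lowest of all 10 (log2 fold change 0.56 with an SE of 0.23, edgeR adjusted p = 0.687). Limma voom with sample weights, and edgeR without the 2 libraries of extreme GC slope, called it.

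Thbs2, an inhibitor of angiogenesis secreted by stromal cells, had 328, 264, 195, 299 and 276 CPM against 413, 462, 472, 518 and 328 CPM. The diets did not overlap, by a margin under 1 CPM (log2 fold change -0.69 with an SE of 0.16, edgeR adjusted p = 0.238), and DESeq2, limma voom with sample weights, the fit with GC and length covariates and that without the libraries of extreme GC slope called it lower. Adamts1, a protease with anti-angiogenic activity, averaged 85.3 ± 15.6 and 63.5 ± 8.11 CPM (SD, n = 5 each; log2 fold change 0.43 with an SE of 0.14, edgeR adjusted p = 0.532). Adm2, a peptide that signals through Calcrl, averaged 3.18 ± 1.14 and 1.68 ± 0.630 CPM (log2 fold change 0.93 with an SE of 0.33, edgeR adjusted p = 0.571). Both were called higher by limma voom with sample weights.

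**Figure D5:**
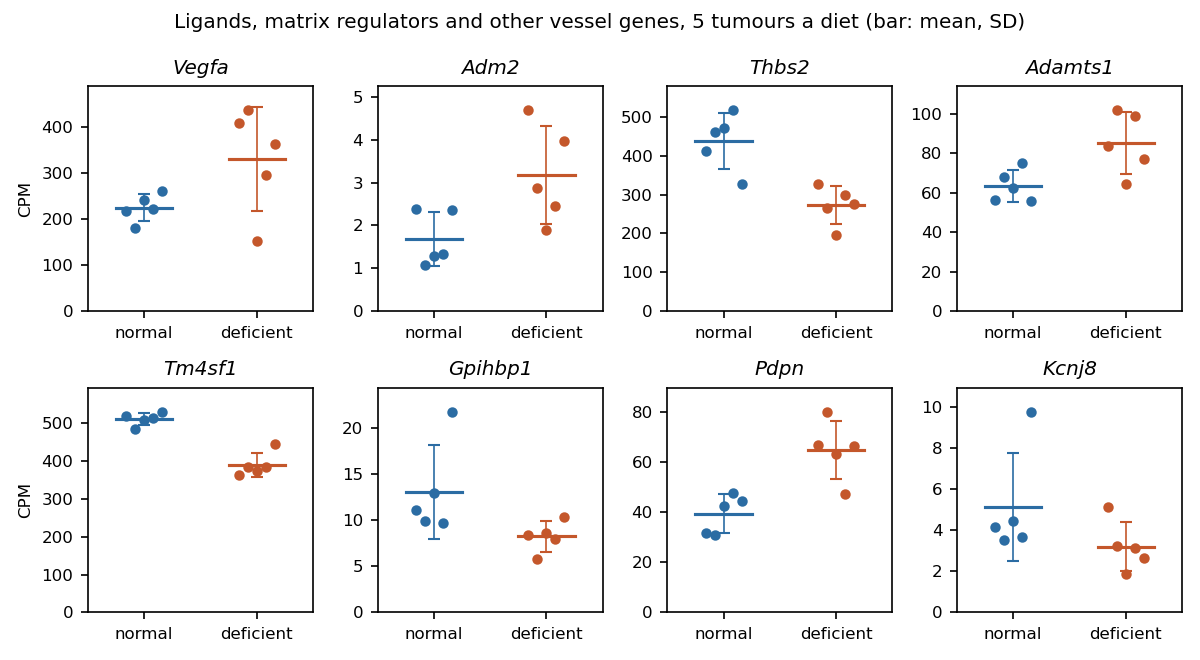
CPM of 8 genes of the fixed lists that are not members, in each of the 10 tumours, with the mean and SD of each diet; every axis starts at 0. Tm4sf1 and Thbs2 do not overlap between the diets, and Vegfa is lowest in arginine-deficient replicate 3 with 152 CPM.

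Notch receptors and targets that are not members were read beside Dll4 and Notch4. Of 10 tested, 8 stood higher and 2 lower (median 0.13), and 0 were called (0 at an unadjusted p under 0.05 by edgeR). Notch1 averaged 61.2 ± 18.1 and 51.1 ± 5.63 CPM (SD, n = 5 each; log2 fold change 0.26 with an SE of 0.19), Lfng, which tunes Notch ligand binding, had -0.28 (SE 0.21), and the target gene Hey1 had 0.27 (SE 0.35).

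Markers of the cells that surround or share vessels were read beside the members. Of 17 tested markers of pericytes and smooth muscle 8 were lower and 9 higher, with a median of 0.02 and 0 called. Their sum, Des included, ran from 252 to 537 CPM on the deficient and from 240 to 332 CPM on the normal diet. Des alone gave 224 of the 537 CPM in arginine-deficient replicate 3 and 157 of 444 CPM in replicate 4. The log2 fold change of Kcnj8, a pericyte potassium channel, was -0.66 (SE 0.34), and that of Acta2, smooth muscle actin, 0.32 (SE 0.18). Des, which pericytes share with skeletal muscle, had 224 and 157 CPM in arginine-deficient replicates 3 and 4 and 1.86 to 30.7 CPM elsewhere, and its log2 fold change of 2.76 (SE 1.2) was -0.81 without the 3 libraries richest in muscle.

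Lymphatic identity could be read from few genes. Of 8 markers 3 were tested, Ccl21a was listed at 0, and Prox1, Mmrn1, Reln and Tbx1 did not pass the filter. For Ccl21a 100% of the exonic bases lie inside another gene, so its 0 does not show absence. Pdpn, shared by lymphatic endothelium, fibroblasts and macrophages, had 66.5, 80.0, 63.2, 47.3 and 66.2 CPM on the deficient and 31.5, 30.8, 42.4, 47.5 and 44.4 CPM on the normal diet. 1 library of each diet overlapped (log2 fold change 0.72 with an SE of 0.17, edgeR adjusted p = 0.240).

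Red blood cell transcripts also stood lower on the deficient diet, though 0 of them passed. All 4 tested haemoglobin genes had negative log2 fold changes (median -1.69, lowest edgeR adjusted p = 0.281), Alas2 was listed at 0, and their sum ran from 56.2 to 106 CPM on the deficient and from 101 to 602 CPM on the normal diet, where replicates 1 and 5 held the most. Platelet markers summed to 33.8 to 46.4 and 24.9 to 46.3 CPM, with 3 of 5 tested genes higher and Gp1bb listed at 0; the log2 fold change was 0.75 for Ppbp (SE 0.34), 0.56 for Pf4 (SE 0.23), 0.20 for Treml1 (SE 0.43), -0.36 for Gp1ba (SE 0.36) and -0.42 for Itga2b (SE 0.23), and 0 were called. Macrophage markers summed to 1804 to 1998 and 1404 to 1994 CPM (6 of 12 higher) and fibroblast markers to 2375 to 4056 and 2775 to 3549 CPM (4 of 10 higher). Adipocyte markers summed to 36.5 to 83.5 and 53.2 to 89.1 CPM (1 of 6 tested higher). Keratinocyte markers summed to at most 10.3 CPM (3 of 3 tested higher) and Schwann cell markers to at most 14.7 CPM (3 of 4 tested higher). All 9 tested muscle markers had positive log2 fold changes, with a median of 3.57 and 0 called, and Acta1 was listed at 0. The muscle sum was 7480 and 1934 CPM in arginine-deficient replicates 3 and 4. Its median was nonetheless lower on the deficient diet, 89.6 CPM against 151 CPM on the normal one. For Alas2 and Acta1 100% of the exonic bases lie inside other genes, and for Gp1bb 92.9%, so their 0 does not show that they are absent. The part of blood, muscle or other cells in the members' values was not tested.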

How the data were processed

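Total RNA of 10 tumours was sequenced, 1 library each, per the labels' protocols. Whole-number read counts per gene, not normalized, were deposited by the authors; FastQC, STAR, featureCounts and mm10 are named in the submitters' processing notes, with no settings or strandedness. Columns were tied to samples by the number in each description, and titles beginning Arg or Control were read as the deficient or normal diet.

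Symbols, exons and overlaps came from GENCODE M21: of 21849 identifiers 21379 were found as written, 437 under a different version number, and 33 gave no symbol. Diets were compared by the quasi-likelihood test of edgeR 4.0.16 under R 4.3.3, with TMM factors, filterByExpr (minimum count 10, minimum total 15) and diet as the only term, on 12929 genes, with Benjamini-Hochberg adjustment over all of them at 0.05. SEs were derived from the log2 fold change and the F statistic. RPKM uses the union of exons. The biological coefficient of variation was 26.5%. In 3 simulations of 200 changed genes each for the diet comparison, over 12929 genes, recovery was 9.62% at a 1.5-fold change, 66.0% at 2-fold and 98.5% at 4-fold. No library pair agreed within sampling noise (lowest chi-square per degree of freedom 16.7); no label says that each library is a separate mouse, so p-values measure only the spread between these samples, which may be technical. Correlations used 100000 permutations of log2 CPM (prior count 2).

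The members and lists were chosen with earlier results of these data known. Full values are given for the 12 members of smallest p and the 2 of highest RPKM in each role, and 3 genes by smallest p for each other list, with Vegfa always. Alternatives were RLE factors, no filter, a filter of 1 CPM in 5 libraries, DESeq2 1.42.0, limma 3.58.1 voom with sample weights, the replicate number as a block, 1 library left out at a time, the 3 libraries richest in muscle left out, GC and length slopes as covariates, and, added after the data were examined, the libraries of extreme GC slope left out and correlations of deviations from each diet's mean.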

Additional observations from a re-analysis of the deposited data

Results flagged for a closer look

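In 49 genes named here, or 98 groups of 5 libraries, 6 had a library whose gap to the next, as a share of the group's range, passed the 95% limit for 5 values; chance gives about 1 in 20. Normal-diet replicate 5 was the highest of its diet in 4 genes. It had 11.4 CPM for Cldn5 (3.56 to 5.49 in the other normal tumours), 15.98 CPM for Mmrn2 (9.32 to 10.7), 21.8 CPM for Gpihbp1 (9.66 to 12.9) and 9.76 CPM for Kcnj8 (3.51 to 4.43). Arginine-deficient replicate 3 had 18.1 CPM for Adgrl4, against 6.47 to 9.24 CPM in the other deficient tumours. Arginine-deficient replicate 5 had 445 CPM for Tm4sf1, against 364 to 385 CPM.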

How the results depend on the processing

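0 members were called under any alternative run, and the number with a negative log2 fold change kept within 23 to 29 of 35 when 1 library was left out. Their median then ran from -0.18 to -0.09, and was -0.22 without the 3 libraries richest in muscle. Members at an unadjusted p under 0.05 numbered 2, against 1 with no filter, 7 by limma voom with sample weights (20.0%, as of all genes, 20.0%), 7 with GC and length covariates (20.0%, against 16% of all genes) and 0 to 2 with 1 library left out (0 without normal-diet replicate 1 or 3 or deficient replicate 5, and 1 without normal-diet replicate 4 or 5 or deficient replicate 2 or 4). Genes called overall numbered 7, against 132 by DESeq2, 373 by limma voom, 68 with GC and length covariates, 18 without the muscle-rich libraries, 88 without the libraries of extreme GC slope, and 0 to 16 with 1 library left out (0 without normal-diet replicate 1 or 3, 2 without deficient replicate 1, 2 or 5 or normal-diet replicate 2, 15 without normal-diet replicate 5, and 16 without arginine-deficient replicate 3). Other endothelial genes called numbered 1 by DESeq2, 1 by limma voom and 1 with GC and length covariates; ligands called numbered 1, 4 and 1, and 2 without the libraries of extreme GC slope. The cause of these differences was not tested.

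With the replicate block 1 gene was called, 0 members had an unadjusted p under 0.05, and Aplnr had -0.083; same-numbered libraries deviated together at correlations of -0.35 to 0.18, and 1 of 5 matched its own number best, so the numbers were not taken as pairs. Signs turned in members near 0 and in some genes farther from it. In the main fit Plvap had -0.31, Mmrn2 -0.19 and Des, which is not a member, 2.76. Aplnr had -0.37 by limma voom, -0.78 without the muscle-rich libraries and -0.23 without those of extreme GC slope; Tek had -0.11, -0.11 and -0.28. Without the muscle-rich libraries Des had -0.81, Efnb2 -0.0082 and Lyve1 -0.31. Without those of extreme GC slope Efnb2 had -0.0025, Ephb4 0.091, Mmrn2 0.0045, Plvap 0.019 and Sox7 -0.17, and with GC and length covariates Clec14a had 0.0080. With 1 library left out the ranges that crossed 0 were -0.22 to 0.34 for Aplnr, -0.27 to 0.12 for Calcrl, -0.23 to 0.11 for Clec14a, -0.27 to 0.13 for Emcn, -0.072 to 0.0084 for Eng, -0.18 to 0.027 for Ephb4, -0.16 to 0.66 for Lyve1, -0.39 to 0.055 for Ptprb, -0.062 to 0.15 for Sox7 and -0.096 to 0.28 for Tek. With 5 tumours a diet, differences of 1.5-fold are mostly not detectable.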
